A study of Mus musculus with 6 samples.

Results

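The 10 circadian clock genes described here are Per1, Per2, Per3, Cry1, Cry2, Dbp, Nr1d1, Nr1d2, Arntl and Ciart, found by matching each symbol to its Ensembl identifier in a count table of 52550 genes. All 10 passed the filter on low counts (at least 10 counts in at least 3 libraries), as did 17621 genes in all. The libraries come from the hippocampus of male C57BL/6 J mice injected at 8 weeks of age, on both sides of CA1, with an adeno-associated virus (AAV) carrying either a control shRNA or shRNAs against the long isoform of hnRNP DL (L-DL), an RNA binding protein of nuclear speckles. There are 3 control libraries, labelled wild type, and 3 L-DL knockdown (KD) libraries, which the labels call a knockdown in one field and a knockout in another. In the KD vector the shRNAs run from H1 promoters, which are active in all cell types, and a CamkIIα promoter drives the zsGreen marker of neurons. The control virus was given at a higher titre than the KD virus. Hippocampal tissue was sequenced without sorting, so cells that the virus did not reach are part of every library. The time of day at collection, the light schedule and the interval from injection to collection are not given in the sources used here. Each library is a single time point, and the phase of the clock was not measured.

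In the core clock, a dimer of CLOCK (or NPAS2) and BMAL1, the product of Arntl, binds E-box sequences and switches on the Per and Cry genes, whose proteins return to the nucleus and block the dimer. A second loop runs through Nr1d1 and Nr1d2, which encode the repressors REV-ERBα and REV-ERBβ. These bind ROR elements and hold Arntl down, so that Arntl transcripts peak at the opposite time of day to those of the Per, Nr1d, Dbp and Ciart genes. The hippocampus carries its own clock, set by signals from the suprachiasmatic nucleus and by glucocorticoids, and Per1 is in addition induced by neuronal activity.

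The promoter sequences of these genes are shown because the clock proteins act on short elements in them. RefSeq windows on GRCm38.p6, from 250 bases before to 50 bases after an annotated start, were found for 9 of the 10 genes, with 11 windows in all. Per2 had no entry. The windows were searched on both strands for the E-box CACGTG, the E'-box CACGTT, the D-box TTANGTAA, the ROR element core TAGGTCA, the cAMP response element TGACGTCA and the glucocorticoid response element, read as GNACA and TGTNC with 3 bases between them. Over 32851 RefSeq windows of the same length, these letters were present in 7.15%, 4.68%, 2.32%, 2.61%, 1.79% and 0.475% of windows, in that order. The 250 bases before the start are printed for the 6 windows with a match there, 5′ to 3′ on the gene's own strand, with the matches in capitals. An E'-box on the opposite strand reads AACGTG. Ciart is at chr3:95882229-95882478 on the minus strand, Per1 at chr11:69098699-69098948 on the plus strand, Per3 at chr4:151044666-151044915 on the minus strand, Cry1 at chr10:85185055-85185304 on the minus strand, Cry2 at chr2:92434070-92434319 on the minus strand and Nr1d1 at chr11:98775378-98775627 on the minus strand.
Ciart: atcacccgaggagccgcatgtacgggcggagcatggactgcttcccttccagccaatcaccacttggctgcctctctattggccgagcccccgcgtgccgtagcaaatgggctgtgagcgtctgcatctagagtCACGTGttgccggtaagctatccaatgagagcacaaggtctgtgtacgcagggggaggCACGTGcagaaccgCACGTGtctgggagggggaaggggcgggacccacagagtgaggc
Per1: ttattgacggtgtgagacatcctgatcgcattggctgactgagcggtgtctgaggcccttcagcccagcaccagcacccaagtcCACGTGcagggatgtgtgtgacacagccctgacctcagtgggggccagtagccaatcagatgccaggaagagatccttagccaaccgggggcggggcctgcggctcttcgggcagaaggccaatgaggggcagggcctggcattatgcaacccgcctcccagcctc
Per3: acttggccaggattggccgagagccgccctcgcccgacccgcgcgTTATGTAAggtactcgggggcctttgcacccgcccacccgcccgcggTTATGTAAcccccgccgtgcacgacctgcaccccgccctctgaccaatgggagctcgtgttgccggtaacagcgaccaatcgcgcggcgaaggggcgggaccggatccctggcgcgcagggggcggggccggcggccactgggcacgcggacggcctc
Cry1: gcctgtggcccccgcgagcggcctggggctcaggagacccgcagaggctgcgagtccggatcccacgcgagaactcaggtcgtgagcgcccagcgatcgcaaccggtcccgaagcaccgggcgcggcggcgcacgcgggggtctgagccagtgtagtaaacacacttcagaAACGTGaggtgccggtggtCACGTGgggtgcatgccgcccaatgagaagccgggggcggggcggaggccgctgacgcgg
Cry2: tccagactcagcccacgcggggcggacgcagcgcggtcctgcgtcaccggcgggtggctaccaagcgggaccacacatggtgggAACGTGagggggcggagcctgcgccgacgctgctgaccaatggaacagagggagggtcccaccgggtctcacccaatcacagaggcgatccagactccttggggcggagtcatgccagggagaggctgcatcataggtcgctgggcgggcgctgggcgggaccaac
Nr1d1: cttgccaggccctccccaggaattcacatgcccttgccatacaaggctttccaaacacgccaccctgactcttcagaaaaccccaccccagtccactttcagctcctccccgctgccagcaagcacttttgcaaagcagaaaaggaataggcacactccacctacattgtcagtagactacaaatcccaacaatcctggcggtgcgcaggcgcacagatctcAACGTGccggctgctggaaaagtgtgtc

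Ciart held 3 E-boxes, beginning 116, 58 and 44 bases before the start. In the printed Per1 window an E-box began 166 bases before the start, and the other Per1 window held no match. Cry1 had an E-box at 60 bases and an E'-box at 79 bases. Per3 had 2 D-boxes, at 205 and 158 bases, and no E-box in this window. The D-box is the element bound by DBP, TEF and HLF. Cry2 held an E'-box at 166 bases and Nr1d1 an E'-box at 28 bases. In Arntl, one window held the ROR element core 31 bases after the start. No motif was found in the Dbp or Nr1d2 windows, and no cAMP or glucocorticoid response element in any of the 11 windows. These are matches of letters and not measured binding.

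Gene counts summed to between 16052529 and 17913064 per library. Hnrnpdl, the targeted gene, was at 176, 184 and 171 CPM (a gene's count scaled to the library's total after TMM scaling) in control replicates 1 to 3 and at 217, 150 and 173 CPM in KD replicates 1 to 3. Its log2 fold change (KD minus control) was 0.03 with a standard error (SE) of 0.12 and an adjusted p of 0.898 in edgeR's quasi-likelihood test (-0.13, adjusted p = 0.255, without KD replicate 1), so the gene-level count did not check the labels, and the groups are named as labelled. The short isoform comes from the same gene and is counted with the long one. KD replicate 1 stood apart from the other 5 libraries on the second principal component (-52.5 against -1.91 to 27.0), and results of the gene test are therefore given with and without it. In the whole table, 5379 of 17621 genes (30.5%) passed an adjusted p of 0.05, with 15.6% higher and 15.0% lower in KD. Without KD replicate 1, 37.5% of 17253 genes passed, 18.8% in each direction. Nothing states that the libraries of a group are separate mice, so p-values measure the spread between these samples, which may be technical. In bulk tissue, fewer cells of a type and less RNA per cell cannot be told apart.

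Of the 10 clock genes, 3 passed the test, against 30.5% of all genes. Cry2 rose, and Per3 and Nr1d2 fell. Without KD replicate 1 these remained and Per1, higher in KD, and Nr1d1, lower in KD, were added, which makes 5 of 10 against 37.5%. The median log2 fold change of the 10 was -0.23, beside 0.01 over all genes tested. One library, KD replicate 1, was the lowest of the 6 libraries for 7 clock genes and the highest for 2, against 17.6% and 18.1% of all genes.

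**Figure D1:**
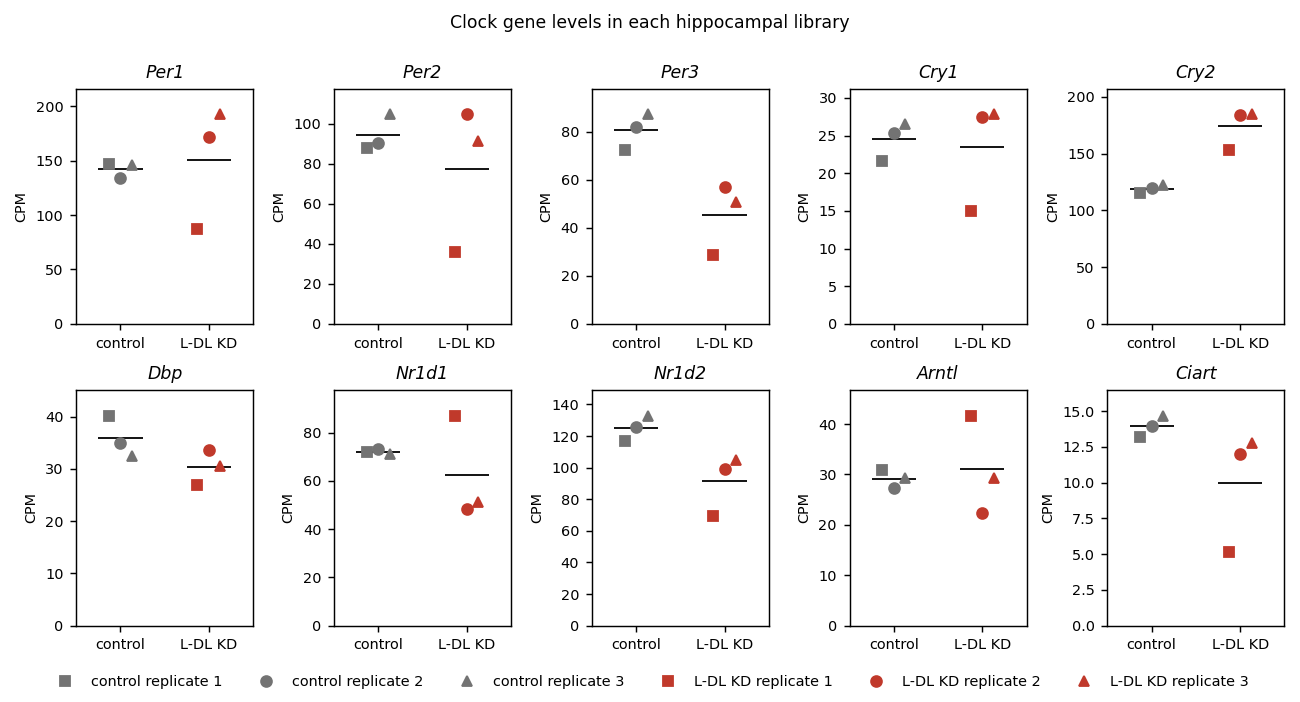
CPM of each clock gene (vertical axes from 0, one panel per gene) in the 3 control libraries (grey) and the 3 L-DL KD libraries (red), with marker shapes for replicates and a line at each group mean. KD replicate 1 (red square) is the lowest point for 7 genes and the highest for Nr1d1 and Arntl, while Cry2 is higher in all 3 KD libraries than in any control.

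The period genes encode the PER proteins, the negative arm of the loop. Per1 (chr11:69095217-69109960, GRCm38) was at 147, 134 and 146 CPM in the controls and at 87.1, 172 and 193 CPM in KD. KD replicate 1 was below every control and the other 2 KD libraries were above every control. The group means were 142 ± 7.32 and 151 ± 56.0 CPM (SD, n = 3 each), and the log2 fold change was 0.08 (SE 0.25, adjusted p = 0.837). Without KD replicate 1 it was 0.36 (SE 0.08, adjusted p = 0.00779). Per2 (chr1:91415982-91459324) was at 87.8, 90.3 and 105 CPM in the controls and at 35.8, 105 and 91.5 CPM in KD. KD replicates 2 and 3 lay within or at the edge of the control range, and KD replicate 1 was at 0.365 times their mean. The log2 fold change was -0.28 (SE 0.33, adjusted p = 0.554) with all libraries and 0.06 (SE 0.10, adjusted p = 0.642) without KD replicate 1. Per3 (chr4:151003652-151044665) was at 72.2, 82.1 and 87.4 CPM in the controls and at 28.5, 57.1 and 50.8 CPM in KD. All 3 KD libraries were below all 3 controls. It fell by 0.82 on the log2 scale (SE 0.22, adjusted p = 0.0256), and by 0.58 (SE 0.10, adjusted p = 0.00240) without KD replicate 1. The Per3 call was lost when any one control was left out, with adjusted p from 0.0528 to 0.0874. Per3 lies within Camta1 on the same strand, and Camta1 was at 290 to 316 CPM in the controls and 206 to 235 CPM in KD.

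The cryptochrome genes encode the partners of the PER proteins. Cry1 (chr10:85131700-85185064) was at 21.6, 25.4 and 26.5 CPM in the controls and at 15, 27.5 and 27.9 CPM in KD. The first KD library was below all controls and the others above them. The log2 fold change was -0.06 (SE 0.23, adjusted p = 0.865), or 0.18 (SE 0.11, adjusted p = 0.247) without that library. Cry2 (chr2:92403646-92434043) was at 115, 120 and 122 CPM in the controls and at 153, 184 and 185 CPM in KD. The groups did not overlap, which held for 47.2% of all genes. Cry2 rose by 0.55 on the log2 scale (SE 0.09, adjusted p = 0.00271), from 119 ± 3.52 to 174 ± 18.3 CPM, and by 0.64 (SE 0.06, adjusted p = 0.000158) without KD replicate 1. It was the only clock gene to pass the test under all 12 alternatives, and the only one for which KD replicate 1 was neither the lowest nor the highest library.

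The count ratio of Cry2 to Cry1 within a library was 4.60 to 5.32 in the controls and 10.2, 6.70 and 6.65 in KD. All 3 KD libraries were above the controls, and KD replicate 1 was farthest from them.

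The REV-ERB genes are both targets of the CLOCK dimer and repressors of Arntl. Nr1d1 (chr11:98767932-98775333) was at 72.1, 73.1 and 71.2 CPM in the controls, the tightest control group of the 10, and at 87.1, 48.5 and 51.2 CPM in KD. Against the controls, KD replicate 1 was higher than each and the other 2 were lower than each. The log2 fold change was -0.21 (SE 0.20, adjusted p = 0.471) with all libraries and -0.53 (SE 0.07, adjusted p = 0.000620) without KD replicate 1. Nr1d2 (chr14:18204054-18239127) was at 117, 126 and 133 CPM in the controls and at 69.4, 99.4 and 105 CPM in KD. All 3 KD libraries were below all controls. Nr1d2 fell by 0.46 on the log2 scale (SE 0.15, adjusted p = 0.0452), and by 0.29 (SE 0.08, adjusted p = 0.0177) without KD replicate 1. The Nr1d2 call was lost in 5 of 12 alternatives, among them each one that left out a control (adjusted p from 0.0800 to 0.134) and scaling by library size (0.0557). KD replicate 1 thus held the highest Nr1d1 and the lowest Nr1d2 of the 6 libraries. The last 1075 bases of Nr1d1 overlap Thra on the other strand, which was at 504 to 565 CPM in the controls and at 398, 342 and 330 CPM in KD. Whether the counting used strand is not given in the sources used here.

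Arntl encodes BMAL1, the activator of the loop. It (chr7:113207465-113314126) was at 30.9, 27.4 and 29.3 CPM in the controls and at 41.7, 22.4 and 29.3 CPM in KD. The highest library was KD replicate 1 and the lowest KD replicate 2, with KD replicate 3 inside the control range. The log2 fold change was 0.09 (SE 0.20, adjusted p = 0.769), or -0.17 (SE 0.13, adjusted p = 0.330) without KD replicate 1.

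Dbp and Ciart are outputs of the E-box. Dbp (chr7:45705088-45710203), a PAR bZIP activator acting on D-boxes, was at 40.2, 34.9 and 32.4 CPM in the controls and at 27.0, 33.6 and 30.5 CPM in KD. The groups overlapped, and KD replicate 1 was lowest by a small margin. The log2 fold change was -0.24 (SE 0.12, adjusted p = 0.165), or -0.16 (SE 0.11, adjusted p = 0.293) without it. The last 737 bases of Dbp overlap Sphk2 on the other strand. Sphk2 was at 39.3 to 41.1 CPM in the controls and at 51.2 to 55.7 CPM in KD. Ciart (chr3:95878503-95882251), a repressor of the CLOCK dimer also known as CHRONO, was at 13.2, 14.0 and 14.7 CPM in the controls and at 5.12, 12 and 12.8 CPM in KD. All KD libraries were below all controls, but KD replicates 2 and 3 were close to them. The log2 fold change was -0.49 (SE 0.30, adjusted p = 0.261), or -0.17 (SE 0.13, adjusted p = 0.351) without KD replicate 1.

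**Figure D2:**
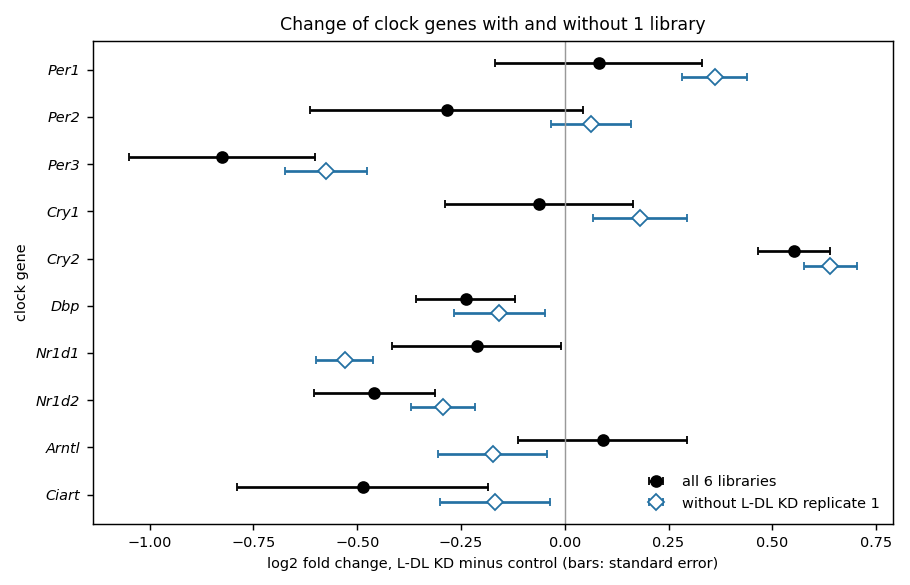
Log2 fold change of each clock gene (horizontal axis, KD minus control, bars for the standard error) with all 6 libraries (black circles) and without L-DL KD replicate 1 (blue diamonds). Per2, Cry1 and Arntl change sign between the fits, and Cry2 stays between 0.55 and 0.64.

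The controls lay closer together than the KD libraries did for all 10 clock genes, which held for 65.4% of all genes. For 9 of the 10 the range of the KD group was at least 2 times that of the controls, against 34.6% of all genes. The median range over the 10 genes was 0.18 on the log2 scale among the controls and 0.90 among the KD libraries, beside 0.24 and 0.36 over all genes. KD replicates 2 and 3 differed from each other by a median of 0.12 for the clock genes and 0.18 for all genes. The median size of the difference between KD replicate 1 and the mean of the other 2 was 0.85 for the clock genes and 0.22 for all genes. For Per2, 96.2% of genes had a smaller difference than its -1.45, and for Ciart 95% had a smaller one than its -1.28. At the other end, 54.4% of genes had a smaller difference than Dbp (-0.25) and 57.6% a smaller one than Cry2 (-0.27). For comparison, no control was the lowest library for more than 1 clock gene, and control replicate 3 and KD replicate 3 were each the highest for 3.

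Ratios of counts inside one library do not depend on how libraries are scaled. Per2 to Arntl was 2.84, 3.30 and 3.58 in the controls and 0.860, 4.69 and 3.13 in KD. Ciart to Arntl was 0.426, 0.512 and 0.503 in the controls and 0.123, 0.536 and 0.438 in KD. Both ratios were lowest in KD replicate 1, while KD replicates 2 and 3 lay near or above the controls. Per1 to Nr1d1 was 2.04, 1.83 and 2.05 in the controls and 1, 3.54 and 3.77 in KD. Nr1d2 to Nr1d1 was 1.63, 1.73 and 1.86 in the controls and 0.797, 2.05 and 2.05 in KD. In these 2 ratios KD replicate 1 was below every control and the other KD libraries were above every control. The ratio of Per3 to Arntl differed in this respect, with 2.33 to 3 in the controls and 0.685, 2.55 and 1.74 in KD. Dbp to Arntl was 1.11 to 1.30 in the controls and 0.648, 1.504 and 1.04 in KD, again lowest in KD replicate 1.

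**Figure D3:**
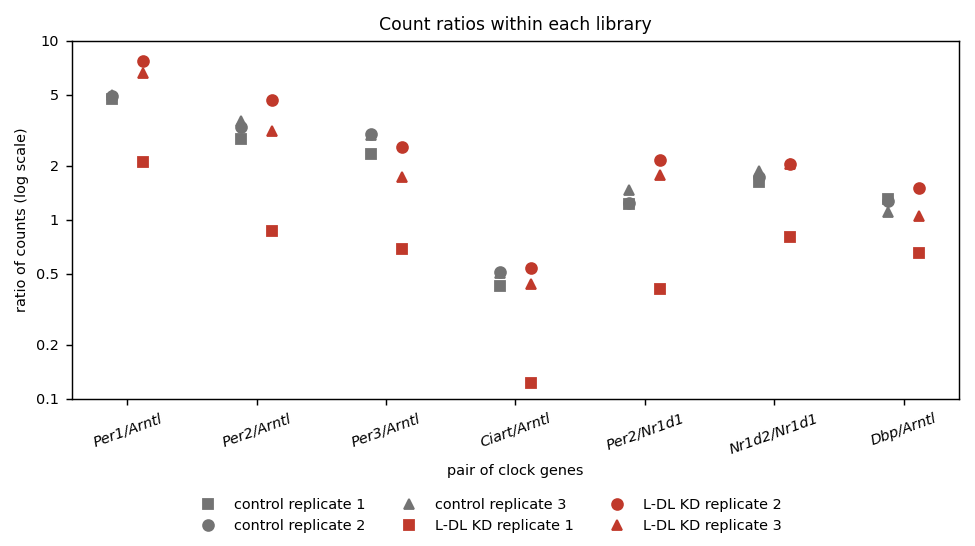
Ratios of counts between pairs of clock genes (vertical axis, log scale) in each of the 6 libraries, controls grey and L-DL KD red, with marker shapes for replicates. KD replicate 1 (red square) is the lowest of the 6 libraries in every ratio plotted.

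Per kilobase of exon, which allows levels to be compared between genes, Per1 was the highest of the 10 in the controls at 25.3 CPM per kb, followed by Nr1d1 at 23.4 and Nr1d2 at 23.2. The libraries of Nr1d2 overlapped with those of both Nr1d1 and Per1. Cry2 (18.8), Per2 (16.1) and Dbp (12) came next, each apart from its neighbours. Per3 (8.38), Cry1 (7.33) and Ciart (6.18) followed, with overlap between Per3 and Cry1 and between Cry1 and Ciart. Arntl was the lowest at 3.88 CPM per kb.

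Among the other genes of the core loop, 8 of 17 passed the test (3 higher and 5 lower), against 30.5% of all genes, with a median log2 fold change of -0.06. Without KD replicate 1, 11 passed (5 higher and 6 lower), against 37.5%, and these include the 8. Clock, the partner of BMAL1, was at 95.2, 95.1 and 103 CPM in the controls and at 84.7, 75.6 and 70.6 CPM in KD and fell by 0.34 (SE 0.08, adjusted p = 0.0169). Npas2, which can stand in for CLOCK, was at 19.6 to 22.1 CPM in the controls and 19.5 to 20.3 CPM in KD (log2 fold change -0.06, SE 0.10, adjusted p = 0.726). Bhlhe40, the E-box repressor DEC1, fell by 0.67 (SE 0.11, adjusted p = 0.00283), from 134 to 154 CPM in the controls to 79.5 to 103 CPM in KD. Rorb, an activator of Arntl, fell by 0.57 (adjusted p = 0.0280). Btrc, a ubiquitin ligase subunit that acts on PER proteins, fell by 0.27 (adjusted p = 0.0352). Csnk1d, the casein kinase that phosphorylates PER proteins, rose by 0.35 (SE 0.08, adjusted p = 0.0116), from 162 to 169 CPM to 191 to 222 CPM. Timeless rose by 0.55 (adjusted p = 0.0244) and Nono, an RNA binding partner of PER, by 0.24 (adjusted p = 0.0167). Without KD replicate 1 the log2 fold change was -0.42 for Clock, -0.07 for Npas2, -0.64 for Bhlhe40, -0.43 for Rorb, -0.30 for Btrc, 0.42 for Csnk1d, 0.54 for Timeless and 0.26 for Nono, with adjusted p from 0.00112 to 0.0391 for all but Npas2 (0.650). That library was the lowest for 3 of these 17 genes and the highest for 1. The number that passed fell to 4, 5 and 1 without control replicate 1, 2 or 3.

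Among 12 genes reported as rhythmic in many mouse tissues, 3 passed the test, a share below the 30.5% of all genes. Tef, a PAR bZIP relative of Dbp, was at 362, 364 and 383 CPM in the controls and at 175, 253 and 238 CPM in KD and fell by 0.73 (SE 0.13, adjusted p = 0.00436). Wee1, a cell cycle kinase with an E-box, was at 24.0, 27.5 and 29.1 CPM in the controls and at 9.92, 16.8 and 17.2 CPM in KD and fell by 0.88 (SE 0.21, adjusted p = 0.0146). Usp2, a ubiquitin protease, was at 69.3, 74.2 and 84.2 CPM in the controls and at 108, 114 and 104 CPM in KD and rose by 0.52 (SE 0.09, adjusted p = 0.00342). In Tef and Wee1 the groups were apart with KD replicate 1 lowest, whereas the 3 KD libraries were close for Usp2. Hlf, the third PAR bZIP gene, was at 129, 154 and 163 CPM in the controls and at 57.5, 111 and 119 CPM in KD (log2 fold change -0.63, adjusted p = 0.0857, and -0.36, adjusted p = 0.0265, without KD replicate 1). Cirbp, a cold-inducible RNA binding protein, was highest in KD replicate 1 at 55.3 CPM, beside 35.7 and 42.0 CPM in the other KD libraries and 26.7 to 34.9 CPM in the controls (log2 fold change 0.51, adjusted p = 0.0532, and 0.32, adjusted p = 0.0808, without KD replicate 1). KD replicate 1 was the lowest library for 7 of the 12 and the highest for Cirbp alone. Without it 7 of the 12 passed, 4 higher and 3 lower, against 37.5% of all genes, and the log2 fold changes were -0.59 for Tef, -0.66 for Wee1 and 0.53 for Usp2 (adjusted p from 0.000331 to 0.00326).

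**Figure D4:**
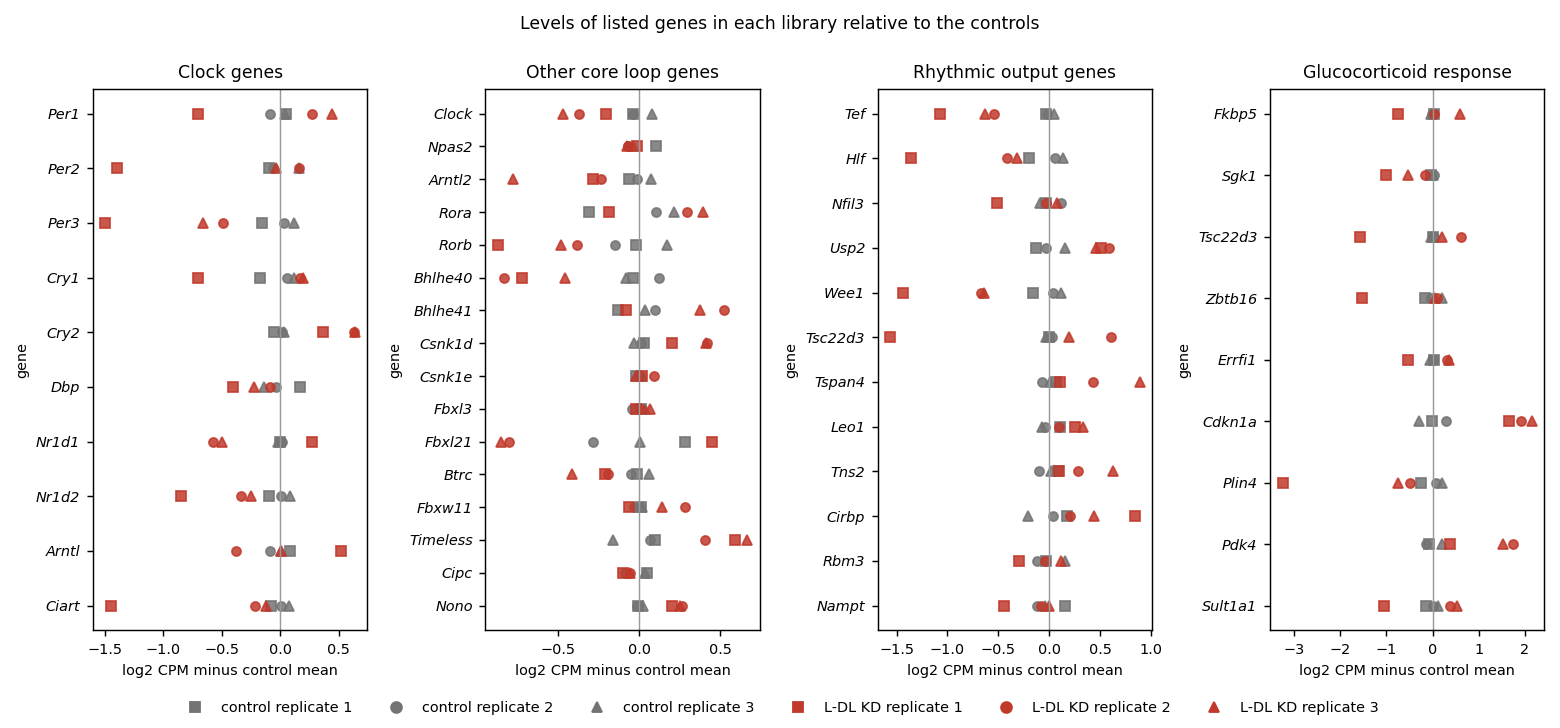
Log2 CPM minus the control mean (horizontal axes) for clock genes, other core loop genes, rhythmic output genes and glucocorticoid response genes, with controls grey, L-DL KD red and marker shapes for replicates. The red square, KD replicate 1, is lowest for 7 of 10 clock genes, 3 core loop genes, 7 of 12 output genes and 7 of 9 glucocorticoid response genes.

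Per1, Per2 and Tsc22d3 are also responsive to other signals, and genes of 2 such signals were measured in the same libraries. Of 9 glucocorticoid response genes tested, 2 passed, both higher in KD, against 30.5% of all genes. Cdkn1a rose by 1.90 (adjusted p = 0.00029) and Pdk4 by 1.31 (adjusted p = 0.0143). Without KD replicate 1, 7 of the 9 passed against 37.5%, with 5 higher, among them Cdkn1a (2.02) and Pdk4 (1.63), and 2 lower, Sgk1 (-0.34, adjusted p = 0.0318) and Plin4 (-0.63, adjusted p = 0.0101). Mt2 was at 0 counts in all 6 libraries. KD replicate 1 was the lowest library for 7 of the 9, and the median difference from the other KD libraries was -1.25. Tsc22d3, the glucocorticoid-induced leucine zipper GILZ, was at 119, 122 and 117 CPM in the controls and at 40.4, 182 and 137 CPM in KD. Zbtb16 was at 86.6, 94.5 and 112 CPM in the controls and at 33.5, 103 and 101 CPM in KD. Plin4 was at 34.0, 42.7 and 46.7 CPM in the controls and at 4.30, 28.8 and 24.4 CPM in KD. All 3 of these genes were lowest in KD replicate 1. The list's summed level was 788 to 836 CPM in the controls, 639 CPM in KD replicate 1, and 1171 and 1163 CPM in the other KD libraries. Without Cdkn1a, the sum was 694 to 734 CPM in the controls, 343 CPM in KD replicate 1, and 814 and 746 CPM in KD replicates 2 and 3. The part of this in the clock gene values was not tested. Among 10 immediate early genes, which neurons induce with activity, 5 fell and 1 rose, against 15.0% and 15.6% of all genes. Without KD replicate 1, 5 fell and 2 rose, against 18.8% in each direction. Arc fell by 2.35 (adjusted p = 7.26e-05), Npas4 by 1.38 and Nr4a1 by 1.33, and Fosb by 1.24 (adjusted p from 0.000685 to 0.0171 for these 3). With KD replicate 1 left out the values were -2.30, -1.49, -1.19 and -0.94 for Arc, Npas4, Nr4a1 and Fosb, with adjusted p from 1.99e-05 to 0.00311. KD replicate 1 was the lowest library for 6 of the 10.

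Microglial and pan-neuronal markers moved with the groups, while the other cell type lists were more mixed. Over all genes, 15.6% were higher and 15.0% lower with all libraries, and 18.8% in each direction without KD replicate 1. All 10 microglial markers rose (median log2 fold change 1.03), and their sum was 1352 to 1691 CPM in the controls and 2840 to 3656 CPM in KD. Of 10 pan-neuronal markers 9 fell (median -0.56), from 9622 to 10160 CPM to 5626 to 6662 CPM. Of 5 CA1 and 5 dentate granule markers 3 fell in each list, with sums of 736 to 813 and 317 to 369 CPM in the controls and 532 to 656 and 267 to 287 CPM in KD. No marker on any of the cell type lists was at 0 counts in any library. Of 8 astrocyte markers 2 rose and 3 fell (7168 to 7282 CPM in the controls, 5757 to 6745 CPM in KD), and of 7 endothelial markers 4 rose (296 to 318 CPM and 366 to 440 CPM). Of 8 oligodendrocyte markers 2 rose, and KD replicate 1 was the highest library for 7, with a sum of 10122 CPM against 7936 to 8489 CPM in the controls and 8731 and 6909 CPM in the other KD libraries. Choroid plexus markers summed to 434 to 4605 CPM in the controls, 5161 CPM in KD replicate 1, and 114 and 29.5 CPM in KD replicates 2 and 3. None of the 5 passed with all libraries, and all 5 were lower without KD replicate 1 (median log2 fold change -4.35). Without that library the other lists gave 10 of 10 microglial markers higher, 10 of 10 pan-neuronal lower, 3 of 5 CA1 lower and 1 higher, 4 of 5 dentate granule lower and 1 higher, 3 of 8 astrocyte higher and 3 lower, 2 of 8 oligodendrocyte higher and 1 lower, and 5 of 7 endothelial higher. The part of cell type shares in the clock gene values was not tested.

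The junction count tables gave a second readout. They list 40961 alternative splicing events, of which 21 lie in 6 of the clock genes: 3 in Per1, 3 in Per2, 4 in Per3, 3 in Dbp, 6 in Nr1d2 and 2 in Arntl. No event was listed in Cry1, Cry2, Nr1d1 or Ciart. The tables' columns carry no group names, and the order of groups was taken from the study's definition of the inclusion difference. In 14 of the 21 the rarer form had at most 0.833 junction counts per library, and these were not tested. None of the other 7 passed, and none had an unadjusted p under 0.05 in edgeR or in limma, while 48 of 18829 events (0.255%) passed in edgeR over all genes, 2496 had an unadjusted p under 0.05, and none passed in limma. Per2 had the smallest p. Its pair listed as mutually exclusive exons, chr1:91421368-91421554 and chr1:91423690-91424486, is on the minus strand, where the second listed exon is the inclusion form. Inclusion of the second was 0.648, 0.672 and 0.633 in the controls and 0.514, 0.489 and 0.617 in KD. Each library had 70 to 137 junction counts for the pair. The groups did not overlap, but the adjusted p was 0.544 (unadjusted 0.139). Listed as single skipped exons, both had an inclusion of 0.934 or above in every library. The level of the pair is therefore not a measure of a choice between them. A pair in Nr1d2, also on the minus strand, was chr14:18216650-18216794 and chr14:18219968-18220056. Inclusion of its second exon was 0.309 ± 0.0208 in the controls and 0.246 ± 0.0342 in KD (SD, n = 3 each, adjusted p = 0.686). An overlapping pair in Nr1d2 had chr14:18214874-18215493 as its first exon and chr14:18216650-18216794 as its second. Inclusion of that second exon was 0.538 in the controls and 0.576 in KD (adjusted p = 0.887). Listed as a single skipped exon, each exon of these Nr1d2 pairs had an inclusion of at least 0.97 in every library. In Per1, use of the upstream one of 2 acceptor sites, at chr11:69101675 and chr11:69101735, was at 0.992 and 0.985 (adjusted p = 0.888), and in Dbp inclusion of chr7:45706606-45707016 was at 0.976 and 0.961 (adjusted p = 0.893). With any one library left out, no clock gene event passed.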

How the data were processed

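Hippocampal RNA was sequenced in 3 control and 3 L-DL KD libraries (NEBNext Ultra RNA kit). The authors deposited raw counts of reads per Ensembl gene, made with no normalization. The submitters' processing notes name Bowtie 1.1.2, HISAT2 2.1.0, HTSeq 0.6.1 and mm10, and the methods name Ensembl release 90 and rMATS 4.1.0. The authors also deposited junction counts per splicing event, whose other columns (p-values, FDR and inclusion differences) were not used. Symbols came from GENCODE M21 (GRCm38), which paired 52403 of 52550 identifiers.

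Genes that reached 10 counts in 3 or more libraries were tested with edgeR 4.0.16 (R 4.3.3), using TMM scaling, the quasi-likelihood test and Benjamini-Hochberg adjustment over all genes tested, with 0.05 as the threshold. CPM were computed in edgeR from the total of gene counts times the TMM factor of each library. CPM per kb divide by the length of the union of exons. Splicing events with a mean of at least 20 junction counts, and at least 1 of each form, were tested in edgeR on inclusion and skipping counts with library effects. Gene counts summed to 16052529 to 17913064 per library. DESeq2 1.42.0 and limma 3.58.1 served as alternatives. On simulated data with 200 of 17621 genes changed by 1 on the log2 scale in KD against control, edgeR called 62.6% of them and 11 unchanged genes.

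The genes and gene lists were chosen with earlier results of these data known. Beside the 10 clock genes, the named genes are those past the threshold in the core loop and output lists, Clock and Npas2, up to 4 with the largest fold change past the threshold in the immediate early and glucocorticoid lists, the 3 nearest profiles of Dbp and of Arntl, and up to 5 splicing events with the smallest p. Hlf, Cirbp, Tsc22d3, Zbtb16, Plin4, Sgk1, the overlapping genes and the ratios were chosen after their values were seen. One core loop gene past the threshold is counted but not reported here by name. Each alternative changed one choice: the tool, the scaling, the filter, the replicate block or one library left out. Deviations of same-numbered control and KD libraries correlated at 0.05, 0.13 and -0.11, and those of differently numbered libraries at -0.18 to 0.12. These values cannot decide whether the numbers pair the samples, and a pairing is not known.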

Additional observations from a re-analysis of the deposited data

How the results depend on the processing

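Of the 10 clock genes, Cry2 passed under all 12 alternatives with log2 fold changes from 0.51 to 0.64. The number of clock genes that passed, 3, became 1 to 5 when one library was left out (1 without any one control, 5 without L-DL KD replicate 1) and 2 to 3 under the other alternatives. The core loop partners, 8, became 1 to 11, and the rhythmic outputs, 3, became 2 to 7 when one library was left out. The outputs were 5 with DESeq2, 6 with no filter on low counts and 5 with the replicate block, which does not rest on a known pairing and left the clock genes at 3. Genes called, 5379, became 3498 to 6477 with one library left out and 4635 with the replicate block. With one library left out, the log2 fold change of Per1 ran from -0.14 to 0.36 (-0.01 and -0.14 without KD replicates 2 and 3), of Per2 from -0.56 to 0.0626, of Cry1 from -0.20 to 0.18 and of Arntl from -0.17 to 0.29. The signs of Per2, Cry1 and Arntl turned without KD replicate 1 alone. The 48 splicing events became 0 to 52 with one library left out and 0 in limma. No replicate block was run for the splicing events, whose columns carry no replicate numbers. The causes were not tested beyond the smaller number of samples that leaving one out makes.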

Other observations

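The profiles most like those of Dbp and Arntl were sought over 12719 genes with a mean of at least 5 CPM, as the root mean square difference of centred log2 CPM (pseudocount 0.5) over the 6 libraries. Nearest to Dbp were 1700066M21Rik (0.059), Rlf (0.0593) and Tyw3 (0.0617). Rlf was at 54.8, 52.8 and 49.8 CPM in the controls and at 40.4, 49.1 and 42.9 CPM in KD. Nearest to Arntl were Abcb10 (0.0749), Zkscan2 (0.0858) and Alg6 (0.0873). Zkscan2 was at 23.2, 21 and 22.2 CPM in the controls and at 35.1, 19.8 and 23 CPM in KD, with KD replicate 1 highest, as for Arntl. With 6 libraries such likeness is a description of these samples, and none of the 10 clock genes is among the 3 nearest of either.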
